A study of Mus musculus with 2 samples.

Results

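Cthrc1-high fibroblasts were taken from droplet single-cell RNA libraries of injured mouse carotid artery as the cells with a high count of Cthrc1, a secreted glycoprotein of activated fibroblasts. They made up 195 of 8009 kept cells at 4 weeks and 301 of 5427 kept cells at 2 weeks after injury, 496 of 13436 cells in all. A cell was a member when it held at least 10 UMIs (unique molecular identifiers, counted transcripts) of Dcn (decorin, a fibroblast proteoglycan), no UMI of the leukocyte gene Ptprc, the smooth muscle gene Myh11 or the endothelial gene Pecam1, at most 1 of Cxcl13, at most 4 of Myoc and at least 3 of Cthrc1. Any level of Pi16, a gene of resting adventitial fibroblasts, was allowed. The cells that met every other limit but held under 3 Cthrc1 UMIs, 2142 at 4 weeks and 422 at 2 weeks, are called the other fibroblast-gated cells and serve as the comparison. These counts chose the cells, so the levels of the 7 genes of the rule are no result.

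Both libraries came from male C57BL/6J mice of 8 weeks of age whose carotid artery had been denuded with a guide wire, a model of intimal hyperplasia, and whose external carotid artery was then tied. One library was made from vessels at 4 weeks (28 days) and the other at 2 weeks (14 days), and the series design gives n = 18 for each time, so cells of several animals may share a library, and no cell can be traced to an animal. The labels name the carotid artery as tissue but write of aortic grafts in the extraction protocol and of both the left and the right artery in the injury protocol. Adventitia was separated from the inner layers, tissue was digested with papain, and live nucleated cells were sorted. Uninjured arteries were not analysed here. With 1 library per time there is no replicate of either time, so no test between the times was made. Bounds given in parentheses are at 95% and allow for counting error alone.

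Fibroblasts of the adventitia surround the muscular wall and build its collagen sheath. After injury some of them take on an activated state in which they secrete fibrillar collagens, collagen-crosslinking enzymes and matricellular proteins, which sit in the matrix and signal to cells rather than bear load. Cthrc1 is known as a marker of such matrix-secreting fibroblasts in scarring lung, heart and vessel wall of the mouse, and periostin (Postn) is one of its usual companions.

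The promoters of 5 genes on which the results turn are shown for orientation. Postn, C1qtnf3 and Col5a3 were higher in Cthrc1-high cells than in other fibroblast-gated cells in both libraries, Tnfaip6 was lower at 4 weeks than at 2 weeks, and Fmod was higher at 4 weeks. Each sequence runs 5′ to 3′ from 250 bases before to 50 bases after a start listed by RefSeq (GRCm38.p6), and where several were listed, the one nearest the GENCODE start was taken. Capitals mark 3 motifs searched on both strands. These were the AP-1 motif, spelled TGANTCA, the core promoter box spelled TATAAA, and the box spelled CCAAT. None of the marked matches overlaps another. A match on the opposite strand appears as its reverse complement.
Postn, chr3:54360857-54361156, plus strand: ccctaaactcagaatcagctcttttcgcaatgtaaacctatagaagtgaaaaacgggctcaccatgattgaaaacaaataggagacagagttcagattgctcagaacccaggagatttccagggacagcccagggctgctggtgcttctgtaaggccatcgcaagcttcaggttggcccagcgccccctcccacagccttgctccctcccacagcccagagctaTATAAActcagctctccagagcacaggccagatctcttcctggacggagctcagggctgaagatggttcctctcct
C1qtnf3, chr15:10952082-10952381, plus strand: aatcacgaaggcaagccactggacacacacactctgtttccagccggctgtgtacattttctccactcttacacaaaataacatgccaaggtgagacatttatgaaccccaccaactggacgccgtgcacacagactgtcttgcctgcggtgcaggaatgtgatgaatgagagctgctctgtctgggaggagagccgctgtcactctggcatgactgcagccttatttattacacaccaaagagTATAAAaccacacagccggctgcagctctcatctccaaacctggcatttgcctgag
Col5a3, chr9:20815018-20815317, minus strand: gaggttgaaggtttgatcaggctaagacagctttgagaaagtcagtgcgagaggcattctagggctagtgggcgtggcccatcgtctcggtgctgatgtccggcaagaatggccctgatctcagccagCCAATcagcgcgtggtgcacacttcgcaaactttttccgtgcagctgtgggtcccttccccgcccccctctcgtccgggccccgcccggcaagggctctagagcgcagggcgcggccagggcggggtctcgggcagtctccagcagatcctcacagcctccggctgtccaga
Tnfaip6, chr2:52037863-52038162, plus strand: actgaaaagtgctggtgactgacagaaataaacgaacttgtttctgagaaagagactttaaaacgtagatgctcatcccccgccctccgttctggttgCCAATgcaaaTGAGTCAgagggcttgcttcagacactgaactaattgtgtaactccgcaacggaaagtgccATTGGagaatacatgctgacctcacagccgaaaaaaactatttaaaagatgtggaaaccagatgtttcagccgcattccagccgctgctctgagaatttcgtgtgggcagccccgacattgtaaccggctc
Fmod, chr1:134037004-134037303, plus strand: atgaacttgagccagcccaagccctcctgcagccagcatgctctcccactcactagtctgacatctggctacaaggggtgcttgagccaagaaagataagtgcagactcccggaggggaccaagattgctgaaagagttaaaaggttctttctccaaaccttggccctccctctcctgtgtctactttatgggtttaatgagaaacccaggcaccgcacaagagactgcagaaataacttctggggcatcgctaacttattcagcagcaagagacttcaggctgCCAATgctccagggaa
Of 27025 promoters of this length, 7.87% held the AP-1 motif, 14.2% the core promoter box and 37.9% the CCAAT box. Of the 14 genes chosen by rule as higher in Cthrc1-high cells, 7 had a promoter in the table, and 0, 3 and 3 of these held the motifs in the same order. A match is a description of letters and not a bound site.

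The share of Cthrc1-high cells was lower at 4 weeks, and the share depended on sequencing depth. They were 2.43% of kept cells at 4 weeks (2.11 to 2.80%, exact Clopper-Pearson interval) and 5.55% at 2 weeks (4.95 to 6.19%). Of fibroblast-gated cells they were 8.34% at 4 weeks (7.25 to 9.54%, 195 of 2337) and 41.6% at 2 weeks (38.0 to 45.3%, 301 of 723). The members were deeper than their neighbours, with a median of 15660 UMIs at 4 weeks and 29133 at 2 weeks, against 11948 and 15815.5 in other fibroblast-gated cells. For a form at equal depth, cells were thinned to 5000 UMIs, shallower cells were left out, and the limits were applied to the thinned counts. The share of fibroblast-gated cells was then 3.08% at 4 weeks and 18.1% at 2 weeks. With the Cthrc1 and Dcn limits set per 10000 UMIs it was 5.49% and 23.7%. In all 3 forms the 4-week share was the lower one. A share says nothing of how many such cells a vessel held.

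Just inside the limit, 54 cells at 4 weeks and 39 at 2 weeks held exactly 3 Cthrc1 UMIs. Just outside it, 113 cells at 4 weeks and 35 at 2 weeks held 2. Levels are summed UMIs per 1000000 UMIs of the group (CPM). Postn had 818 CPM in the 4-week cells with 3 UMIs and 625 CPM in those with 2, and 1448 against 1114 CPM at 2 weeks. Members held 52.5% of all Cthrc1 UMIs of kept cells at 4 weeks and 57.4% at 2 weeks, and cells with at least 10 Dcn UMIs that failed another limit held a further 30.5% and 39.7%.

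The label was set beside its other markers, which were chosen with earlier results of these data known, so their levels are descriptions. Cthrc1 lies at chr15:39076932-39087121, Postn at chr3:54361109-54391037 and Col3a1 at chr1:45311538-45349706 (mm10). Postn and Col3a1, the chain of type III collagen, stood above the other fibroblast-gated cells by more than a log2 ratio of 1 in both libraries. Col3a1 had 16586 CPM in 4-week members against 6986 CPM in the other cells, and 24043 against 11695 CPM at 2 weeks. Ptx3, a hyaluronan-binding pentraxin, had 74.6 against 28.7 CPM at 4 weeks but 202 against 198 CPM at 2 weeks. Has1, a hyaluronan synthase, had 34.6 against 21.4 CPM at 4 weeks and 114 against 110 CPM at 2 weeks. Tnfaip6, which transfers proteins onto hyaluronan, had 184 against 120 CPM at 4 weeks and 652 against 405 CPM at 2 weeks. In summed levels Postn and Col3a1 were therefore higher in members than in other fibroblast-gated cells in both libraries. Ptx3 and Has1 differed by little or nothing at 2 weeks. Single members were not all set apart. At 4 weeks 163 of 195 members held a Postn UMI, and the lower quartile was 0.964 UMIs per 10000.

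Sums of markers of other cell types ranged from a few CPM to over 300 CPM in members. The 8 smooth muscle markers summed to 55.8 CPM at 4 weeks and 80.8 CPM at 2 weeks, against 43.0 and 69.5 CPM in other fibroblast-gated cells, with Myh11 at 0 by the rule. The 6 pericyte markers summed to 240 CPM at 4 weeks and 149 CPM at 2 weeks, against 233 and 311 CPM, with Higd1b at 0. The 8 endothelial markers summed to 4.47 and 4.87 CPM, against 3.11 and 5.86 CPM, with Pecam1 at 0 by the rule, Cdh5, Emcn and Cldn5 at 0 at 4 weeks and Tie1 at 0 in both. The 8 macrophage markers summed to 43.2 CPM at 4 weeks and 174 CPM at 2 weeks, against 55.5 and 181 CPM in other fibroblast-gated cells. The 5 tenocyte markers, which include Fmod and Thbs4, summed to 323 CPM at 4 weeks and 112 CPM at 2 weeks, against 141 and 83.5 CPM. The 7 chondrocyte markers summed to 35.2 and 54.7 CPM, against 35.7 and 152 CPM, with Col9a1 and Lect1 at 0 in both. The parathyroid hormone gene Pth, which fibroblasts are not known to make, had 17.9 CPM in members at 4 weeks and 89.3 CPM at 2 weeks, against 21.5 and 1062 CPM in other fibroblast-gated cells. The 7 parathyroid and epithelial markers, Pth among them, summed to 22.7 CPM in members at 4 weeks and 121 CPM at 2 weeks. In other fibroblast-gated cells they summed to 27.8 and 1573 CPM, so 2-week ratios are set against cells that carried this RNA. The part of these genes in any result was not tested. The libraries shared 8 barcodes, 0 of them among members.

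**Figure D1:**
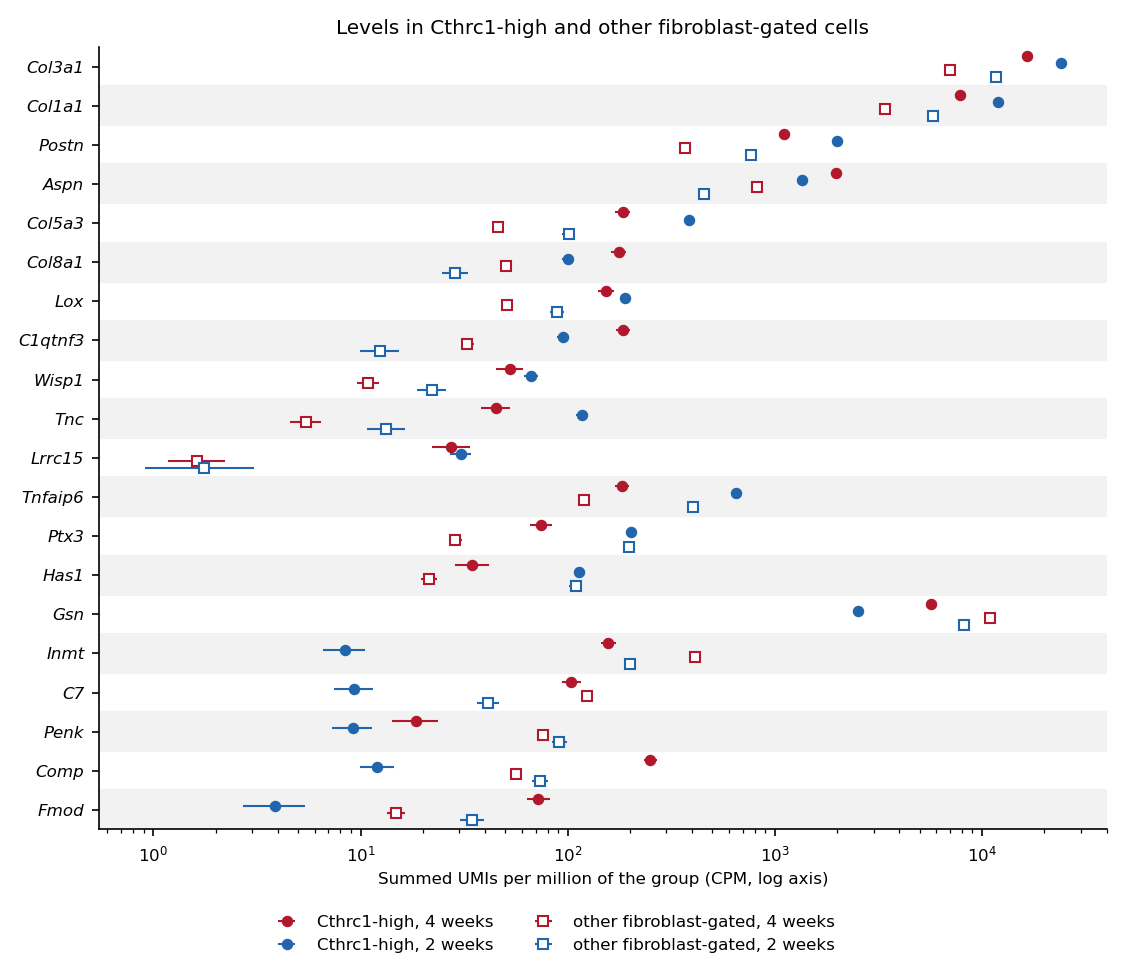
Levels of 20 genes as summed UMIs per 1000000 of each group, on a log axis, in Cthrc1-high cells (filled circles) and other fibroblast-gated cells (open squares) at 4 weeks (red) and 2 weeks (blue). Bars are exact 95% Poisson intervals; Col3a1, Postn, Col5a3, Tnc and Lrrc15 lie to the right in Cthrc1-high cells of both libraries, whereas Comp and Fmod do so at 4 weeks only and lie to the left at 2 weeks.

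The first comparison asks what else sets the Cthrc1-high cells apart from other fibroblast-gated cells of the same library. The collagen genes Col5a3, Col8a1, Col12a1, Col5a2 and Col1a1 were among the 14 highest genes chosen by rule, and Penk, Smpd3, Inmt and Cxcl12 were among the 10 lowest. Of 12132 genes with at least 50 UMIs, 98 (0.808%) had a log2 ratio of at least 1 in both libraries and 128 (1.06%) had one of at most -1 in both. In the 4-week library alone 278 genes (2.29%) were higher and 424 (3.49%) lower by as much, and in the 2-week library alone 323 (2.66%) and 590 (4.86%). The median over all genes was -0.04 at 4 weeks and -0.02 at 2 weeks. Because the members were chosen by a gene of the same cells, these ratios are descriptions. Members were deeper than the other cells, and among cells of 10000 to 30000 UMIs 34 genes were higher and 87 lower, while with limits per 10000 UMIs 47 were higher and 145 lower.

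Periostin, which binds collagen and helps its crosslinking, had 1111 CPM in 4-week members against 369 CPM in the other cells, and 2004 against 772 CPM at 2 weeks. The log2 ratios were 1.59 (1.53 to 1.64) and 1.38 (1.33 to 1.42). After thinning to 5000 UMIs a Postn UMI was found in 71.0% of members at 4 weeks and 91.0% at 2 weeks. In immune cells, a guide to free RNA, the shares were 2.56% and 8.37%. These cells held at most 1 Dcn UMI, a limit that favours barcodes with little fibroblast RNA. The level of free RNA may therefore be higher than they show. The Postn level varied widely among members. At 4 weeks it ran from 0 to 235 UMIs per 10000 with quartiles of 0.964 and 12.1. At 2 weeks it ran from 0 to 147 with quartiles of 6.04 and 22.3.

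Fibrillar collagens, which form the load-bearing fibres, were the list with the highest share of genes past a log2 ratio of 1 in both libraries. Among the 25 lists it had 5 of 9 genes higher in both libraries and none lower, and the list median was 1.20 at 4 weeks and 1.04 at 2 weeks. Col5a3, a chain of type V collagen, had 184 CPM in 4-week members against 46.0 CPM in other cells, and 384 against 101 CPM at 2 weeks, log2 ratios of 2.00 and 1.93. A Col5a3 UMI was found in 80 of 195 members at 4 weeks and 258 of 301 at 2 weeks. Col1a1 had 7797 against 3397 CPM at 4 weeks and 11963 against 5800 CPM at 2 weeks. Col5a2 had ratios of 1.11 and 1.18. Col24a1 had ratios of 2.03 and 3.17 on only 12 and 107 UMIs in members. Col11a1, a cartilage and tendon collagen, went opposite ways, at 3.04 at 4 weeks and -0.89 at 2 weeks.

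Among the 12 other collagens, 2 were higher in both libraries. Col8a1, a short-chain collagen of injured vessel walls, had 176 against 50.2 CPM at 4 weeks and 99.9 against 28.7 CPM at 2 weeks. Col12a1, which coats collagen fibrils, had 97.8 against 39.3 CPM at 4 weeks and 121 against 45.1 CPM at 2 weeks. The type VI chains Col6a1, Col6a2 and Col6a3 had ratios of 0.49 to 0.92 at 4 weeks and 0.50 to 0.86 at 2 weeks, below the threshold. The basement membrane chain Col4a1 had ratios of 0.15 and -0.56.

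Of 21 genes that fold and crosslink collagen, 3 were higher in both libraries and none was lower. Lox, the lysyl oxidase that crosslinks collagen, had 154 against 51.1 CPM at 4 weeks and 190 against 88.7 CPM at 2 weeks. P4ha3, a prolyl hydroxylase subunit, had 30.1 against 12.4 CPM at 4 weeks and 59.9 against 14.2 CPM at 2 weeks. Adamts14, which trims procollagen, had ratios of 1.35 and 1.54 at levels under 10 CPM. Loxl2 had a ratio of 1.51 at 2 weeks and 0.80 at 4 weeks. The secretory machinery behaved differently, since none of 18 chaperones and transport genes passed the threshold in either library. Their medians were 0.16 at 4 weeks and 0.04 at 2 weeks, and Hspa5, the main chaperone of the endoplasmic reticulum, had 981 against 868 CPM at 4 weeks and 1675 against 1720 CPM at 2 weeks.

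Among 19 adhesive and matricellular genes, 4 were higher in both libraries, namely Postn, Tnc, Thbs1 and Wisp1. Wisp1, a secreted CCN-family protein, had 52.5 against 10.9 CPM at 4 weeks and 66.6 against 22.1 CPM at 2 weeks. Tnc, tenascin C of wounds and tendon, had 45.0 against 5.45 CPM at 4 weeks and 117 against 13.3 CPM at 2 weeks. A single cell held 48.3% of the 4-week Tnc UMIs, and without it the level was 23.3 CPM. Thbs1 had 64.7 against 11.8 CPM at 4 weeks and 189 against 66.5 CPM at 2 weeks, but its 2-week ratio was -0.04 when the limits were set per 10000 UMIs. A Thbs1 UMI was found in 18 of 195 members at 4 weeks and 105 of 301 at 2 weeks. Fn1, fibronectin, was abundant in both groups, with ratios of 0.11 and 0.86.

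Smaller matrix and surface genes followed. C1qtnf3, a secreted protein of the C1q and TNF family, had 185 against 32.8 CPM at 4 weeks and 95.4 against 12.5 CPM at 2 weeks, log2 ratios of 2.49 (2.34 to 2.65) and 2.94 (2.61 to 3.28). A C1qtnf3 UMI was found in 62 of 195 members at 4 weeks and 94 of 301 at 2 weeks. Aspn, asporin, which binds collagen and TGF-beta, had 1983 against 818 CPM at 4 weeks and 1360 against 456 CPM at 2 weeks. After thinning 96.9% and 93.7% of members held a UMI of it, against 4.36% and 3.53% of immune cells. Timp1, an inhibitor of matrix proteases, had 370 against 143 CPM at 4 weeks and 416 against 195 CPM at 2 weeks. Tnfrsf12a, the receptor of the cytokine TWEAK, had 60.8 against 25.6 CPM at 4 weeks and 112 against 51.7 CPM at 2 weeks. Cxcl5, a chemokine that attracts neutrophils, had 82.6 against 26.1 CPM at 4 weeks and 147 against 46.9 CPM at 2 weeks, but 1 cell held 50.9% of its 4-week UMIs, and its 2-week ratio was -0.48 among cells of 10000 to 30000 UMIs.

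Contractile genes of the myofibroblast were uneven. Of 16 myofibroblast and TGF-beta response genes, 3 were higher in both libraries, namely Acta2, Lrrc15 and Ddah1. Lrrc15, a surface protein of myofibroblasts, had the same large difference in both libraries, with 27.4 against 1.63 CPM at 4 weeks and 30.4 against 1.76 CPM at 2 weeks, log2 ratios of 4.07 (3.53 to 4.64) and 4.11 (3.28 to 5.08). It was held by a minority, with a UMI in 21 of 195 members at 4 weeks and 69 of 301 at 2 weeks. Acta2, smooth muscle actin, had 96.0 against 22.9 CPM at 4 weeks and 233 against 89.7 CPM at 2 weeks. At 4 weeks, however, 80.1% of its member UMIs lay in 1 cell, and without the top cell of each group the ratio was -0.11. At 2 weeks the ratio was -0.03 with limits per 10000 UMIs. An Acta2 UMI was found in 35 of 195 members at 4 weeks and 162 of 301 at 2 weeks, most of them with few UMIs. Of 21 TGF-beta and BMP genes none was past the threshold in both libraries, and the ligand Tgfb1 had ratios of 0.44 and 0.21. Among 23 transcription factors of mesenchyme, 22 could be measured and Scx alone was higher in both, on 14 and 35 UMIs. Runx1 had 135 against 88.1 CPM at 4 weeks and 159 against 102 CPM at 2 weeks.

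**Figure D2:**
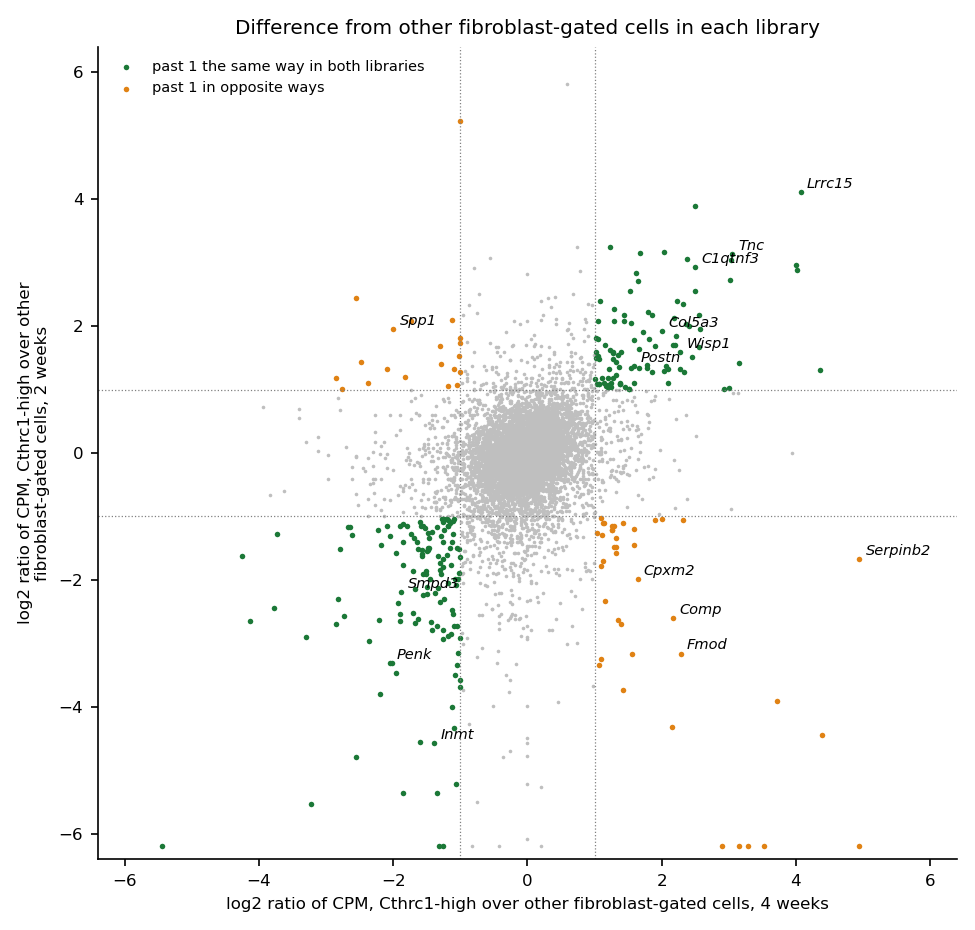
Each point is 1 of 12132 genes, by its log2 ratio of CPM in Cthrc1-high over other fibroblast-gated cells at 4 weeks (horizontal) and at 2 weeks (vertical), with values past the axes drawn at the edge. Dotted lines mark ratios of 1 and -1; green points (98 higher and 128 lower) pass the same way in both libraries, and orange points (40 and 20) pass in opposite ways, Comp, Fmod, Cpxm2 and Serpinb2 among them.

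Genes lower in Cthrc1-high cells included several secreted signals and enzymes. Penk, the enkephalin precursor, had 18.5 CPM in 4-week members against 76.1 CPM in other cells, and 9.18 against 91.3 CPM at 2 weeks. Smpd3, a sphingomyelinase, had 29.2 against 108 CPM at 4 weeks and 24.0 against 110 CPM at 2 weeks. Cxcl12, a chemokine that retains leukocytes, had 120 against 365 CPM at 4 weeks and 349 against 741 CPM at 2 weeks. Cxcl12 was thus lower in members at both times, and in both groups its level was lower at 4 weeks. Apod, a lipid-binding apolipoprotein, had 133 against 334 CPM at 4 weeks and 219 against 958 CPM at 2 weeks. Dpep1, a dipeptidase, had 245 against 504 CPM at 4 weeks and 114 against 451 CPM at 2 weeks. The matrix genes Vit and Adamtsl3, the glycosyltransferase Galnt15 and the alcohol dehydrogenase Adh1 had ratios of -1.86 to -1.14 at 4 weeks and -2.85 to -1.40 at 2 weeks.

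Of 11 genes of the C7 and Inmt fibroblast list, 4 were lower in both libraries (Inmt, Cxcl12, Adh1 and Galnt15) and none was higher. The list median was -0.53 at 4 weeks and -1.88 at 2 weeks. Inmt, a methyltransferase, had 157 CPM in members against 412 CPM in other cells at 4 weeks, and 8.41 against 201 CPM at 2 weeks, log2 ratios of -1.39 and -4.58. The list of resting adventitial genes did not follow. Of 16 genes, 1 (Penk) was lower in both, and the median was -0.17 at 4 weeks and 0.17 at 2 weeks. Pi16 itself, a protease inhibitor gene, had 3620 against 3854 CPM at 4 weeks and 2800 against 3304 CPM at 2 weeks. Gsn, gelsolin, which severs actin filaments, had 5690 against 10886 CPM at 4 weeks and 2514 against 8223 CPM at 2 weeks.

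The matrix genes Postn, Tnc, Lrrc15 and Col5a3 were also higher than in narrower sets of comparison cells. Against cells with no Cthrc1 UMI and at least 3 of Pi16, 1305 at 4 weeks and 235 at 2 weeks, Tnc had log2 ratios of 4.33 and 6.04, Lrrc15 of 4.94 and 5.90, and Postn of 1.94 and 1.60. The members here were of any Pi16, so the 2 sides were not matched for it. In members with at least 3 Pi16 UMIs, Tnc had 16.8 and 78.9 CPM, against 2.23 and 1.79 CPM in these comparison cells. Lrrc15 had 8.38 and 22.8 CPM, against 0.893 and 0.511 CPM. In the highest of 3 Pi16 groups of members, given below, Tnc had 0 and 0.786 CPM. Against cells with no Cthrc1 UMI and at least 2 of C7 or Inmt, 837 and 123 cells, Postn had ratios of 1.95 and 2.36 and Col5a3 of 2.91 and 3.58. These 2 kinds of cell overlap and were chosen with their genes known, so only ratios of genes outside the choice are given. Cd55, a complement inhibitor of the Pi16 programme, had ratios of -0.29 at 4 weeks and 0.83 at 2 weeks against the Pi16 cells, and 1.31 and 2.26 against the C7 or Inmt cells.

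Within fibroblast-gated cells Postn was higher in each group with more Cthrc1, and other genes were less even. From 0 through 1, 2, 3 and 4 to 9 to at least 10 Cthrc1 UMIs, Postn ran through 321, 503, 625, 818, 1045 and 1419 CPM at 4 weeks and 647, 1090, 1114, 1448, 1569 and 2313 CPM at 2 weeks. At 2 weeks Col3a1 had 15961 CPM at 2 Cthrc1 UMIs, 25270 CPM at 3, 21016 CPM at 4 to 9 and 25341 CPM at 10 or more. Tnc had 75.3, 7.69, 104 and 142 CPM in the same 2-week groups. Gsn ran through 11655, 8746, 6906, 6143, 7023 and 3592 CPM at 4 weeks and 9456, 5402, 4375, 3837, 3444 and 1831 CPM at 2 weeks. Cells with more Cthrc1 UMIs were also deeper, with a median of 11597 UMIs at 0 and 20599.5 at 10 or more at 4 weeks, and 14434.5 and 31741 at 2 weeks. The part of depth in these courses was not tested. Within members the Pearson correlation of Cthrc1 and Postn (log levels per cell) was 0.11 over 195 cells at 4 weeks. It was 0.14 over 301 cells at 2 weeks. The rule cut off the low Cthrc1 counts, so these values cannot show how weak or strong the course is. Cells of a library share its preparation, and the correlation is given as a description.

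**Figure D3:**
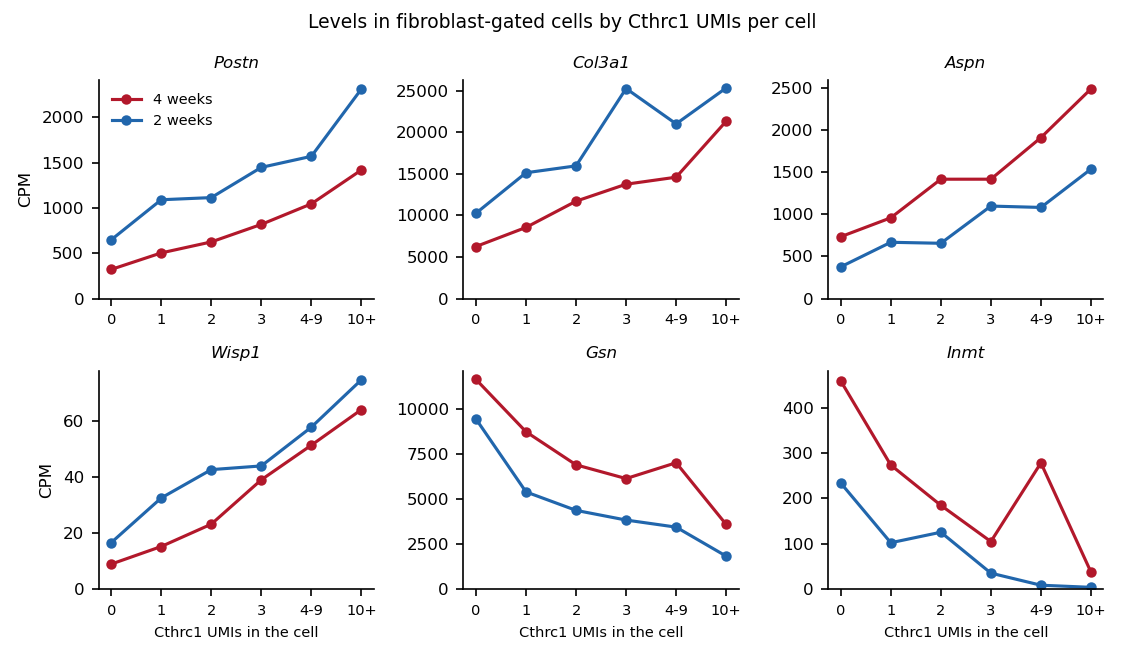
Levels in CPM of 6 genes in fibroblast-gated cells grouped by the number of Cthrc1 UMIs in the cell, at 4 weeks (red) and 2 weeks (blue). Postn, Col3a1, Aspn and Wisp1 are higher at 10 or more Cthrc1 UMIs than at 0. Col3a1 at 2 weeks is, however, about as high at 3 UMIs as at 10 or more. Gsn and Inmt are lower at 10 or more than at 0, but both rise at 4 to 9 UMIs at 4 weeks. Inmt also rises from 1 to 2 UMIs at 2 weeks.

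Cthrc1-high cells differed among themselves along Pi16. Most held it, since 157 of 195 members at 4 weeks (80.5%, 74.2 to 85.8%) and 263 of 301 at 2 weeks (87.4%, 83.1 to 90.9%) had at least 3 Pi16 UMIs, and 16 and 11 had none. The members of each library were divided into 3 groups by Pi16 per UMI, a division chosen after the values had been seen. Postn had 1763 CPM in the 65 4-week members lowest in Pi16, 1118 CPM in the 65 between and 470 CPM in the 65 highest. At 2 weeks it had 3054 CPM in the lowest 101, 1796 CPM in the 100 between and 785 CPM in the highest 100. Col1a1 had 11498, 8424 and 3528 CPM at 4 weeks and 14577, 12810 and 7343 CPM at 2 weeks in the same order. For comparison, other fibroblast-gated cells had 369 and 772 CPM of Postn and 3397 and 5800 CPM of Col1a1 at 4 and 2 weeks. In the group highest in Pi16, Col5a3, C1qtnf3 and Timp1 had 45.4, 24.5 and 86.2 CPM at 4 weeks. Other fibroblast-gated cells had 46.0, 32.8 and 143 CPM of them. At 2 weeks the values were 174, 58.5 and 117 CPM against 101, 12.5 and 195 CPM. Tnc had 125, 14.4 and 0 CPM at 4 weeks, where the highest group had no UMI, and 263, 43.3 and 0.786 CPM at 2 weeks. Lrrc15 had 78.5, 5.93 and 0.908 CPM at 4 weeks and 59.9, 17.6 and 4.32 CPM at 2 weeks.

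Several genes of the resting adventitial list ran the other way. Cd55 had 39.2, 274 and 730 CPM at 4 weeks and 140, 512 and 842 CPM at 2 weeks from the lowest to the highest Pi16 group. Sema3c, a secreted guidance cue, had 10.3, 139 and 486 CPM at 4 weeks and 99.2, 360 and 678 CPM at 2 weeks. Dpp4, a surface peptidase of adventitial progenitors, had 26.2, 69.4 and 271 CPM at 4 weeks and 26.3, 147 and 238 CPM at 2 weeks. Cthrc1 itself had 604, 519 and 397 CPM at 4 weeks and 586, 664 and 672 CPM at 2 weeks. Cthrc1 is a gene of the rule, so its course over these groups is no result. Median depth was 14439, 16559 and 15743 UMIs at 4 weeks and 32503, 30139 and 24732 UMIs at 2 weeks.

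**Figure D4:**
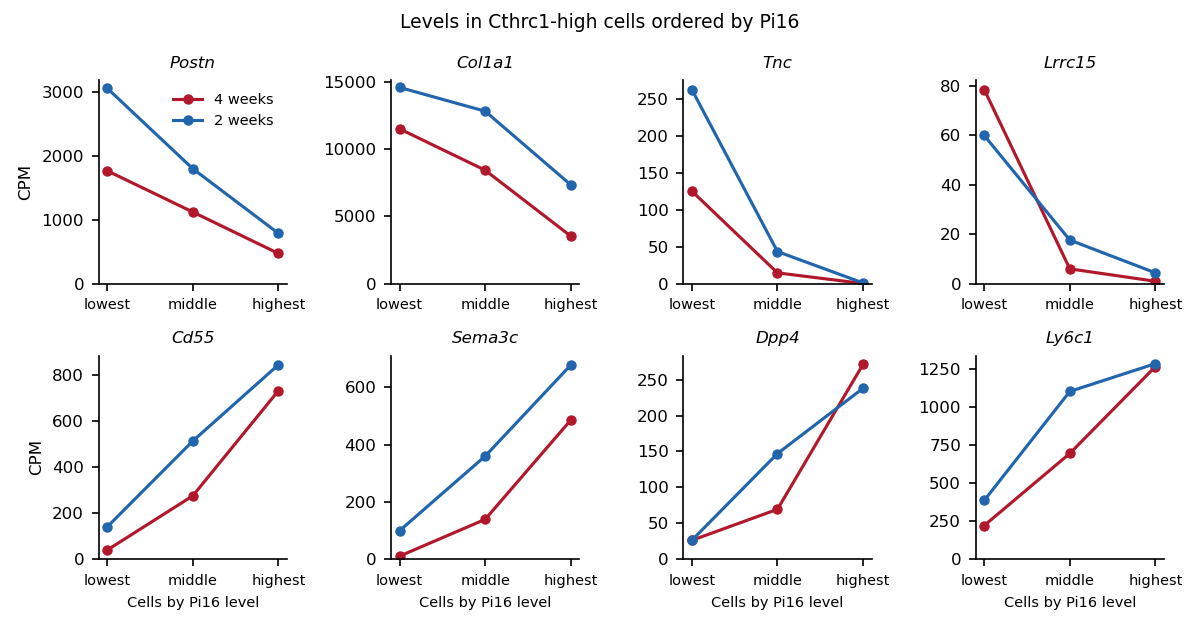
Levels in CPM of 8 genes in Cthrc1-high cells divided into 3 groups of about equal size by Pi16 per UMI, at 4 weeks (red) and 2 weeks (blue), with all vertical axes from 0. Postn, Col1a1, Tnc and Lrrc15 are highest in the cells lowest in Pi16, and Cd55, Sema3c, Dpp4 and Ly6c1 are highest in the cells highest in Pi16, in both libraries.

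Members with at least 3 Pi16 UMIs were also set against members with none, 157 against 16 cells at 4 weeks and 263 against 11 at 2 weeks. Of 9959 genes, 324 (3.25%) were higher and 161 (1.62%) lower by a log2 ratio of at least 1 in both libraries. The 4-week library alone had 1131 (11.4%) and 683 (6.86%), the 2-week library 1265 (12.7%) and 761 (7.64%), and the few Pi16-negative cells limit these values. Without the top cell of each gene 717 were higher and 51 lower in both libraries. Igfbp5, an insulin-like growth factor binding protein, had 2042 against 66.8 CPM at 4 weeks and 2303 against 38.6 CPM at 2 weeks. Ccl11, the eotaxin that attracts eosinophils, had 189 against 7.86 CPM at 4 weeks and 135 against 2.97 CPM at 2 weeks. Sema3c had 256 against 15.7 CPM and 397 against 17.8 CPM, and the lipase gene Pla1a 286 against 23.6 CPM and 222 against 17.8 CPM, at 4 and 2 weeks. Dpp4 had 146 against 11.8 CPM at 4 weeks and 144 against 0 CPM at 2 weeks, where no UMI was found in the 11 cells.

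Thbs1 was lower in the Pi16-positive members, with 43.3 against 236 CPM at 4 weeks and 84.1 against 1985 CPM at 2 weeks, and the 4-week ratio was -0.07 with limits per 10000 UMIs. Mgp, the matrix Gla protein that inhibits calcification, had 4675 against 17991 CPM at 4 weeks and 1256 against 8087 CPM at 2 weeks. Ltbp2, an elastic fibre component, had 44.1 against 181 CPM and 26.2 against 137 CPM, and Fam101b 16.8 against 177 CPM and 11.6 against 86.1 CPM. Tnc had 16.8 against 66.8 CPM at 4 weeks and 78.9 against 499 CPM at 2 weeks, but its 2-week ratio was 0.07 with limits per 10000 UMIs.

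The second comparison sets Cthrc1-high cells at 4 weeks against those at 2 weeks. Most genes of the C7 and Inmt list and 5 of 9 small leucine-rich proteoglycans were higher at 4 weeks, and most hyaluronan genes and 8 of 15 IGF and imprinted growth genes were lower. Of 10239 genes with at least 50 UMIs in members, 163 (1.59%) were higher and 310 (3.03%) lower by a log2 ratio of at least 1, and the median of all genes was -0.02. Each time is 1 library of different depth, so time and library cannot be told apart.

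The C7 and Inmt fibroblast list had 8 of 11 genes higher at 4 weeks and 1, Cxcl12, lower, with a median ratio of 1.34. The same list had a median of -0.35 in other fibroblast-gated cells. Inmt had 157 CPM at 4 weeks against 8.41 CPM at 2 weeks, a log2 ratio of 4.23 (3.88 to 4.59). C7, a complement component, had 104 against 9.29 CPM. Fmo2, a monooxygenase, had 454 against 107 CPM. Among members with at least 10 Cthrc1 UMIs, Inmt had 37.5 against 3.86 CPM and C7 42.1 against 3.86 CPM. In other fibroblast-gated cells Inmt had 412 against 201 CPM, C7 124 against 41.3 CPM and Fmo2 493 against 649 CPM. Cst3, the protease inhibitor cystatin C, had 2990 against 793 CPM in members and 2869 against 3266 CPM in the other cells. Thus at 4 weeks the members were near the other fibroblast-gated cells in C7, Fmo2 and Cst3. At 2 weeks the members were lower, with ratios of -2.15, -2.60 and -2.04.

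Small leucine-rich proteoglycans, which coat and space collagen fibrils, had 5 of 9 measured genes higher at 4 weeks and none lower, with a median of 1.07 against 0.03 in other fibroblast-gated cells. Fmod, fibromodulin, had 72.2 CPM at 4 weeks against 3.87 CPM at 2 weeks. Podn had 146 against 47.3 CPM, Ogn 1192 against 566 CPM and Ecm2 180 against 83.3 CPM. Bgn, biglycan, stayed near level at 1954 against 2274 CPM. Angptl1, a secreted angiopoietin-like protein, had 1062 against 297 CPM, and Hlf, a clock-related transcription factor, 81.7 against 17.9 CPM. Nmb, a neuropeptide gene, had 57.0 against 14.7 CPM.

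Comp (chr8:70373558-70382066), a thrombospondin-family protein of cartilage and tendon, was the named gene with the highest time ratio. It had 251 CPM in members at 4 weeks against 12.1 CPM at 2 weeks, a log2 ratio of 4.38 (4.09 to 4.68). One cell held 45.2% of the 4-week UMIs, and without it the level was 138 CPM. After thinning a Comp UMI was found in 19.7% of members at 4 weeks and 2.33% at 2 weeks, against 0.416% and 0.882% in immune cells. In other fibroblast-gated cells the levels were 56.1 CPM at 4 weeks and 73.4 CPM at 2 weeks. Comp was therefore above the other fibroblast-gated cells at 4 weeks and below them at 2 weeks. In all, 40 genes (0.33%) went this way, while 20 (0.165%) went the opposite way. The summed chondrocyte markers, given above, were also lower than in other fibroblast-gated cells at 2 weeks, and their part in the result was not tested.

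The Comp-bearing members formed a minority with further genes in common. At 4 weeks 35 members had at least 3 Comp UMIs and 147 had none, a split chosen after the values had been seen. Fmod had 416 CPM in the 35 cells and 6.03 CPM in the 147. Cpxm2, a carboxypeptidase-like protein, had 413 against 65.2 CPM, C1qtnf3 710 against 90.1 CPM, Angptl7 381 against 59.6 CPM and Cilp, a cartilage layer protein, 1192 against 240 CPM. Pi16 was lower in the 35 cells, at 1167 against 4096 CPM. Sema3c had 10.8 against 255 CPM, Cd55 54.1 against 414 CPM and Tnfaip6 28.1 against 219 CPM. Of 195 members 31 held both Comp and Fmod, 17 only Comp, 8 only Fmod and 139 neither. At 2 weeks only 11 members had at least 3 Comp UMIs. There Pi16 went the other way, at 4120 CPM against 2719 CPM in the 281 members without Comp. Sema3c, Cd55 and Tnfaip6 were lower in the 11 cells, as at 4 weeks. Epyc, a cartilage proteoglycan, had 57.3 CPM in all members at 4 weeks against 11.9 CPM at 2 weeks.

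Most hyaluronan genes were lower at 4 weeks. Of 10 measured genes of the hyaluronan matrix 7 were lower and none higher, with a median of -1.31 against -0.62 in other fibroblast-gated cells. Tnfaip6 had 184 CPM at 4 weeks against 652 CPM at 2 weeks, a ratio of -1.83 (-1.95 to -1.71). Has1 had 34.6 against 114 CPM and Has2, the other main hyaluronan synthase, 17.3 against 49.0 CPM. Ptx3 had 74.6 against 202 CPM, and Cd44, a hyaluronan receptor, 127 against 289 CPM. Ugdh, which makes the sugar nucleotide for hyaluronan, had 238 against 520 CPM. The 7 lower genes were these 6 and Cemip, and 3 did not pass. After thinning a Tnfaip6 UMI was found in 36.3% of members at 4 weeks and 74.7% at 2 weeks, against 1.04% and 3.09% of immune cells. In other fibroblast-gated cells Tnfaip6, Has1 and Ptx3 had time ratios of -1.75, -2.36 and -2.78. Among members with at least 10 Cthrc1 UMIs the gap was smaller for Ptx3, at 159 against 181 CPM, and for Has1, at 61.3 against 107 CPM. Tnfaip6 had 315 against 689 CPM there and Cd44 136 against 337 CPM.

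Of 15 genes of the IGF axis and imprinted growth genes 8 were lower at 4 weeks and none higher, with a median of -1.63 against -0.62 in other fibroblast-gated cells. H19, an imprinted RNA of fetal tissue, had 17.3 CPM at 4 weeks against 283 CPM at 2 weeks, a ratio of -4.03 (-4.44 to -3.66). Mest had 15.2 against 138 CPM, Plagl1, an imprinted zinc finger gene, 29.5 against 116 CPM, and Peg3 13.4 against 41.6 CPM. Igf2, a fetal growth factor, had 1.79 against 54.7 CPM, on 6 UMIs at 4 weeks. Ptn, the growth factor pleiotrophin, had 38.5 against 226 CPM. At 2 weeks 45 members held both H19 and Mest, 88 only H19, 36 only Mest and 132 neither. In other fibroblast-gated cells H19 had 23.0 against 98.2 CPM, Mest 9.83 against 55.7 CPM and Ptn 20.6 against 119 CPM.

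Other genes lower at 4 weeks were Adam12, a metalloprotease of activated mesenchyme, at 14.9 against 85.5 CPM, and Atf3, a stress-response transcription factor, at 197 against 795 CPM. Spon2 had 12.2 against 57.1 CPM, Angptl4 11.9 against 54.2 CPM and Casp4, an inflammatory caspase, 13.4 against 51.0 CPM. Of 18 measured chemokines and cytokines 6 were lower and 1, Cxcl14, higher. Their median was -0.96, against -0.88 in other fibroblast-gated cells. Il6 had 8.95 against 41.0 CPM. Pth was among the lower genes as well, with the values given above. Fibrillar collagens moved less, with 2 of 9 lower (Col5a3 and Col24a1) and 1 higher (Col11a1). Their median was -0.54, against -0.74 in other fibroblast-gated cells. None of the 18 chaperone and transport genes was past the threshold, with a median of -0.21 against -0.20 in other fibroblast-gated cells.

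**Figure D5:**
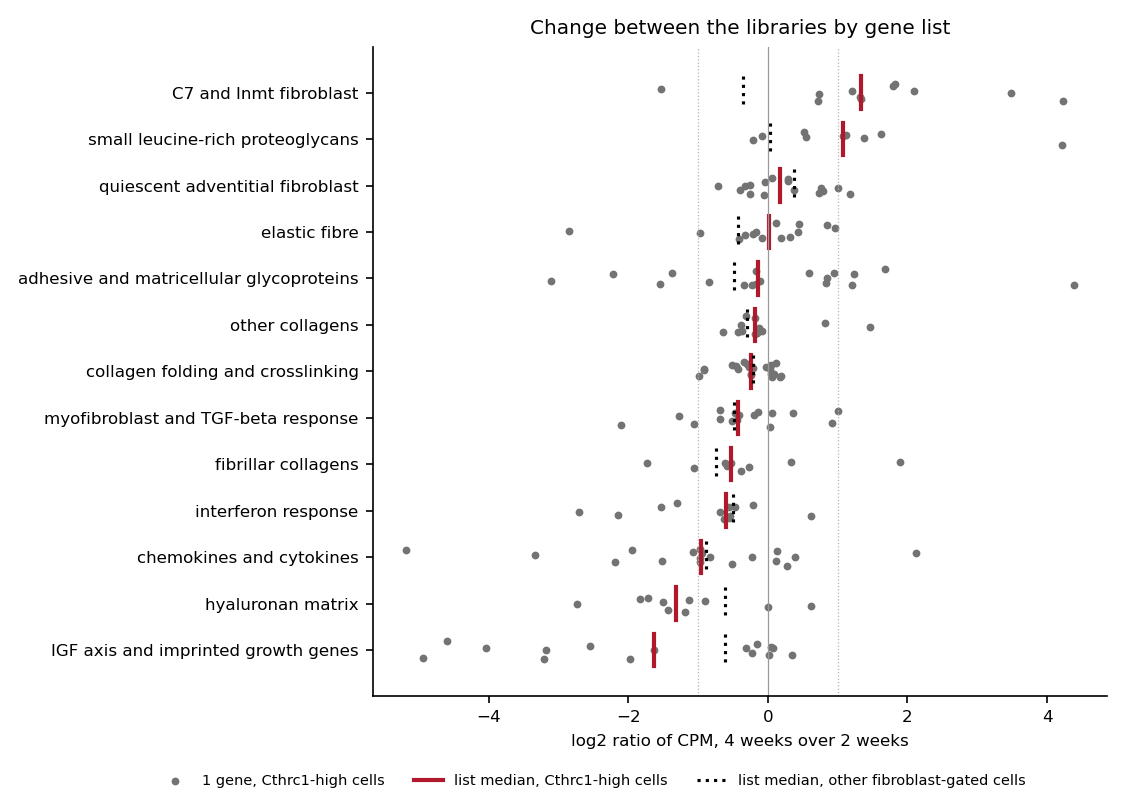
Each grey point is the log2 ratio of 1 gene, CPM at 4 weeks divided by CPM at 2 weeks, in Cthrc1-high cells, for 13 gene lists, with the list median in Cthrc1-high cells (red bar) and in other fibroblast-gated cells (dotted bar). The C7 and Inmt and proteoglycan lists lie to the right (medians 1.34 and 1.07) and the hyaluronan and IGF lists to the left (-1.31 and -1.63); dotted vertical lines mark -1 and 1, and genes were spread vertically at random for legibility.

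Cycling members were few at equal depth. After thinning to 5000 UMIs 4 of 193 members at 4 weeks (2.07%, 0.568 to 5.22%) and 5 of 300 at 2 weeks (1.67%, 0.543 to 3.85%) held at least 2 UMIs of 10 proliferation genes. Without thinning the shares were 4.15% and 19%, so the unthinned gap between the libraries was not seen at equal depth. In other fibroblast-gated cells the thinned shares were 0.587% and 1.84%. Mki67, which marks dividing cells, had 11.3 CPM in members against 5.49 CPM in other cells at 4 weeks and 11.8 against 4.10 CPM at 2 weeks, but 1 cell held 84.2% of its 4-week member UMIs. Of 16 cell cycle genes 4 were higher than in other fibroblast-gated cells in both libraries (Mki67, Ccnb2, Tpx2 and Plk1) and none was lower. Over all genes tested 0.808% were higher in both. The 2-week list median was 1.02, but it was -0.077 among cells of 10000 to 30000 UMIs.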

How the data were processed

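Droplet single-cell libraries, 1 per time, were read as the deposited matrices of UMI counts, which are raw. Per the file headers the authors ran Cell Ranger 4.0.0. The build was mm10, as the submitters' processing notes say. The tables hold 27998 genes, of which 27645 matched GENCODE M21. The libraries had 83753250 UMIs at 4 weeks and 78773018 at 2 weeks. A barcode was kept with 300 genes, 500 UMIs and no more than 10% of UMIs from mitochondrial genes. Doublets stayed in. An alternative removed the highest Scrublet scores, 6.41% of cells at 4 weeks and 4.35% at 2 weeks and 4 members at each time. Other alternatives changed the Cthrc1 limit, the gate's scaling, the depth range, the gene minimum, the weight per cell and the comparison cells. Grades of Cthrc1, the 3 groups by Pi16 and the Comp split were chosen after the values were seen. UMIs were summed per library and group and scaled to CPM. Levels have exact Poisson and log2 ratios exact conditional binomial intervals. The procedure was run on simulated summed counts drawn from a Poisson model, which is also the model of these intervals. That run held no spread between cells, so it cannot show how the intervals fare where single cells hold much of a gene. Thinning drew 5000 UMIs per cell (seed 1), leaving out all shallower cells, among them 2 members at 4 weeks and 1 at 2 weeks. Of other fibroblast-gated cells it left out 269 and 42. The immune cells used as a guide to free RNA held a Ptprc UMI and at most 1 of Dcn, so they may understate it.

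Named genes passed a log2 ratio of 1 with at least 50 CPM, in both libraries for comparisons within a library, and were the 14 highest and 10 lowest against other fibroblast-gated cells, the 12 highest and lowest by time and the 5 highest and lowest by Pi16. The rule skipped genes of the gate, of mitochondria, ribosomes, haemoglobin, X inactivation and the Y chromosome, genes without a proper name, and any gene whose CPM in members was below a 10th of that in some other cell class. Serpinb2, also named by the rule, is given with the opposite-direction genes. Beyond these, the label's markers, members of the 25 gene lists and a few genes chosen after their values were seen are named. The members and lists were chosen with earlier results of these data known. Members may share an animal, so intervals are too narrow for animals. Promoters are from RefSeq (GRCm38.p6). Python 3.11.15, numpy 2.4.6, scipy 1.17.1, pandas 2.3.3, scanpy 1.11.5 and matplotlib 3.10.9 were used.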

Additional observations from a re-analysis of the deposited data

Results flagged for a closer look

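In 9 named genes the Cthrc1-high cells stood above other fibroblast-gated cells at 4 weeks and below them at 2 weeks, each by a log2 ratio of at least 1. With 1 library per time the difference was not tested. In all, 40 of 12132 genes (0.330%) went this way and 20 (0.165%) the opposite way. The gap between the log2 ratios, 4 weeks minus 2 weeks, was 4.77 for Comp, 5.44 for Fmod, 3.63 for Cpxm2 and 2.82 for Angptl7. It was 6.61 for Serpinb2, a protease inhibitor of the serpin family that had 55.2 CPM in members against 1.79 CPM in other cells at 4 weeks and 15.5 against 49.3 CPM at 2 weeks. A single cell held 49.2% of the 4-week Serpinb2 UMIs, and a UMI was found in 2.07% and 2.00% of thinned members. Its 2-week ratio was above 0 under 4 alternatives, at 4.45 with at least 2 Cthrc1 UMIs and 2.22 to 3.22 against narrower comparison cells, so its opposite direction did not hold there. The gap was 2.25 for the collagen gene Col15a1, 2.23 for Spon1, 4.73 for the tendon gene Tnmd and 8.84 for Cilp2. Cilp2 rests on 14 UMIs at 4 weeks and 2 at 2 weeks in members, with 2-week bounds of -7.56 to -2.48 on the log2 ratio, and Tnmd on 37 and 5 UMIs.

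Cells that met the Dcn and Cthrc1 minima but failed another limit are not used above. There were 83 at 4 weeks and 167 at 2 weeks. The Ptprc limit left out 52 and 76, the Pecam1 limit 28 and 59 and the Myh11 limit 5 and 54, with overlap. Their median depth was 21691 and 31404 UMIs, and 52 and 116 of them held no more than 1 UMI of each of the 3 genes. Whether they are doublets or free RNA was not tested.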

How the results depend on the processing

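Limits are 1 library per time, a gate on raw UMIs in libraries of unequal depth, and counting intervals that hold no biological spread. No paired analysis was possible because each time has 1 library and its replicate number pairs nothing. Among alternative values of shares and gene counts 86 stayed and 42 moved, where a count stayed within 1.5 times, a share or single value within its interval, and a list median within 0.25. Among list medians 1110 stayed, 89 moved and 1 changed sign, and among single values 1348 stayed, 649 moved and 16 changed sign.

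Shares of kept cells at 4 and 2 weeks were 3.85 and 6.19% with at least 2 Cthrc1 UMIs, 1.31 and 4.35% with at least 5, 1.65 and 3.34% with limits per 10000 UMIs, 1.33 and 4.25% after thinning and 3.08 and 7.68% with 1 UMI of Ptprc, Myh11 and Pecam1 allowed. Shares of fibroblast-gated cells were 13.2 and 46.5%, 4.49 and 32.6%, 5.49 and 23.7%, and 3.08 and 18.1% under the first 4 of these. The 4-week minus 2-week difference in kept cells, -3.11 percentage points as reported, was -2.35 with at least 2 UMIs, -1.69 per 10000 UMIs and -4.60 with 1 UMI allowed. In fibroblast-gated cells, -33.3 as reported, it was -28.1 with at least 5 UMIs, -18.2 per 10000 UMIs and -15.0 after thinning.

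Genes higher in members in both libraries, 98 as reported, numbered 47 per 10000 UMIs, 34 in cells of 10000 to 30000 UMIs, 44 at 200 UMIs or more per gene, 212 without a filter, 149 with 1 UMI allowed, and 168 and 240 against the Pi16 and the C7 or Inmt cells. Genes lower numbered 53 rather than 128 at 200 UMIs. By time, 163 higher and 310 lower became 79 and 110 at 200 UMIs and 951 and 921 without a filter, and 170 were lower in cells of 10000 to 30000 UMIs. For Pi16, 324 higher became 592 with equal weight per cell and 717 without the top cell of each gene, and 161 lower became 51 without the top cell, 43 at 200 UMIs and 378 without a filter. Leaving out the top cell moved the median of all genes at 4 weeks to -0.11.

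Signs that changed, on the log2 scale, were these, and the cause was not tested. Serpinb2 against other cells at 2 weeks was 4.45 with at least 2 Cthrc1 UMIs and 2.56, 2.22 and 3.22 against cells without Cthrc1, those with Pi16 and those with C7 or Inmt, and its time ratio was -0.39 with at least 2 UMIs. Per 10000 UMIs, 2-week values were -0.041 for Thbs1, -0.034 for Acta2 and 0.067 for Tnc by Pi16. In cells of 10000 to 30000 UMIs, 2-week values were -0.48 for Cxcl5, -0.13 for Acta2 and -0.077 for the cell cycle median. Acta2 at 4 weeks was -0.11 without its top cell. Spp1 at 4 weeks, at 17.6 CPM in members against 70.2 CPM in other cells, was 0.83 against the Pi16 cells, 2.63 against the C7 or Inmt cells and 1.28 with 1 UMI allowed. In members without a Comp UMI, Fmod at 4 weeks was -1.30, and Comp -5.63 by construction. The last of these settings and the 1 UMI allowance were chosen after seeing the data.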

Other observations

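Elastic fibre genes, which let the vessel recoil, were mixed in Cthrc1-high cells. Of 14 genes 1, Fbn2, was higher than in other fibroblast-gated cells in both libraries, with 6.56 against 1.31 CPM at 4 weeks and 47.2 against 9.23 CPM at 2 weeks. Over all 12132 genes 0.808% were higher in both libraries and 1.06% lower. Eln, elastin, had 790 against 296 CPM at 4 weeks and 727 against 558 CPM at 2 weeks. Mfap4 had 739 against 291 CPM at 4 weeks and 378 against 510 CPM at 2 weeks.

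Of 12 genes of the PDGF and FGF axis 2 were higher and 1 lower at 4 weeks, and 1 was higher and 2 lower at 2 weeks. Of these 1, Fgf10, was lower in both libraries, with 4.47 against 17.0 CPM at 4 weeks and 7.41 against 38.0 CPM at 2 weeks. Of 18 measured Wnt genes 1 was higher and 0 lower at 4 weeks, and 2 were higher and 5 lower at 2 weeks. Over all 12132 genes 2.29% were higher and 3.49% lower at 4 weeks, and 2.66% and 4.86% at 2 weeks. The ligand Wnt2 was higher in both, with 37.9 against 11.1 CPM at 4 weeks and 40.6 against 15.5 CPM at 2 weeks. Among chemokines and cytokines the ligand Il11 was higher in both, on 18 and 95 UMIs, and Saa3, an acute-phase gene, had 11.0 CPM in members at 4 weeks against 400 CPM at 2 weeks, where 1 cell held 29.3% of its UMIs.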
